A study of Gossypium barbadense and Gossypium hirsutum with 4 samples.

Results

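Homoeologous pair 13 of allotetraploid cotton, chromosome A13 of the A subgenome and its counterpart D13 of the D subgenome, was described from every island called on these chromosomes in the deposited lists. An island is a stretch in which CENH3 ChIP reads exceeded input reads. The pair held 5487 of 67639 islands in Gossypium barbadense (list name Hai7124) and 7228 of 88971 in Gossypium hirsutum (TM_1), 12715 of 156610 in all. On A13 there were 3449 islands in G. barbadense, against 5271 in G. hirsutum, and on D13 there were 2038 in G. barbadense, against 1957 in G. hirsutum. The groups were a CENH3 ChIP library of G. barbadense leaf, an input library of G. barbadense leaf made with no antibody, and the same 2 kinds of library from G. hirsutum leaf. All 4 came from plants 4 weeks after planting, with chromatin cut by micrococcal nuclease. Each group had 1 library, so the values have no replicate error and none of the differences was given a p-value. Intervals are 95% exact binomial (Clopper-Pearson) on read or island counts and cover counting error only. The labels mention no molecular identifiers that would mark reads as separate molecules, so intervals from reads may be too narrow even for that error.

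CENH3 is the histone H3 variant that takes the place of H3 in the nucleosomes of active centromeres, where the kinetochore is built. Both cottons arose from the union of an A-genome and a D-genome diploid, and A13 and D13 are the counterparts from these parents. The A chromosomes of pairs 2 to 5 carry reciprocal translocations, so those pairs are not plain counterparts. In both cottons the A chromosomes are larger, mainly because they carry more transposable elements. Plant centromeres are usually rich in repeats, and the CENH3 domain marks their functional core. The lists do not pair islands with genes or repeats, and no sequence or annotation of the assemblies was used here. Positions are given on each list's own assembly. Species and subgenomes were set side by side by relative position, with the end of the last island taken as the chromosome's length.

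The scaled ratio of an island was its ChIP reads divided by its input reads (at least 3), times the constant that relates the libraries, 1.64 in G. barbadense and 1.20 in G. hirsutum. Across the pair, the islands held 307266 ChIP and 169064 input reads in G. barbadense, against 541969 ChIP and 320187 input reads in G. hirsutum. The median island was 1200 bp long on A13 and on D13 of G. barbadense, against 1800 bp on both in G. hirsutum. The median scaled ratio in G. barbadense was 2.30 on A13 and 3.06 on D13. In G. hirsutum it was 2.17 on A13 and 2.11 on D13. The other A chromosomes of G. barbadense had medians of 2.23 to 2.40 and its other D chromosomes 2.91 to 3.48, so the higher median of D13 was shared by every D chromosome of that list. With 1 library each, antibody yield, depth and species cannot be told apart.

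Each of the 4 chromosomes carried 1 CENH3 domain that stood above all its other sites. The domain was found from 100-kb bins, in which the log2 scaled ratio of the islands was weighted by the share of the bin they covered and smoothed over 5 bins. It was the run of bins around the maximum that stayed above 25% of the way from the chromosome's median to that maximum, so high enrichment inside it follows from the rule. On A13 it lay at 33.9 to 35.4 Mb in G. barbadense and at 33.8 to 34.8 Mb in G. hirsutum. On D13 it lay at 27.5 to 29.0 Mb in G. barbadense and at 30.2 to 31.3 Mb in G. hirsutum. The smoothed maximum on A13 was 2.34 in G. barbadense, which was 18.1 times the highest site more than 2 Mb away, and 0.72 in G. hirsutum, which was 3.41 times such a site. On D13 the maximum was 2.47 in G. barbadense (19.4 times) and 0.63 in G. hirsutum (4.55 times). A domain at least 2 times as high as any other site was found on 26 of 26 chromosomes in G. barbadense (100%) and on 16 of 26 in G. hirsutum (61.5%), A13 and D13 included. On D02 of G. hirsutum that site lay at the chromosome's start and had a ratio of ChIP to input reads of only 1.49. On D05 and D08 of G. hirsutum the site that passed had ratios of only 2.66 and 2.97. The highest sites of A03, A04, A12, D07, D10 and D12 there had ratios of 7.23 to 9.91 but missed the limit. Passing this limit is thus not the same as having a strongly enriched domain. None of the other 14 chromosomes with such a domain in G. hirsutum exceeded D13 in this contrast, and 3 exceeded A13. With the share of each bin covered by islands as the value, this contrast was 4.48 on A13 and 3.01 on D13 in G. barbadense, but 1.0 on A13 and 1.38 on D13 in G. hirsutum.

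**Figure D1:**
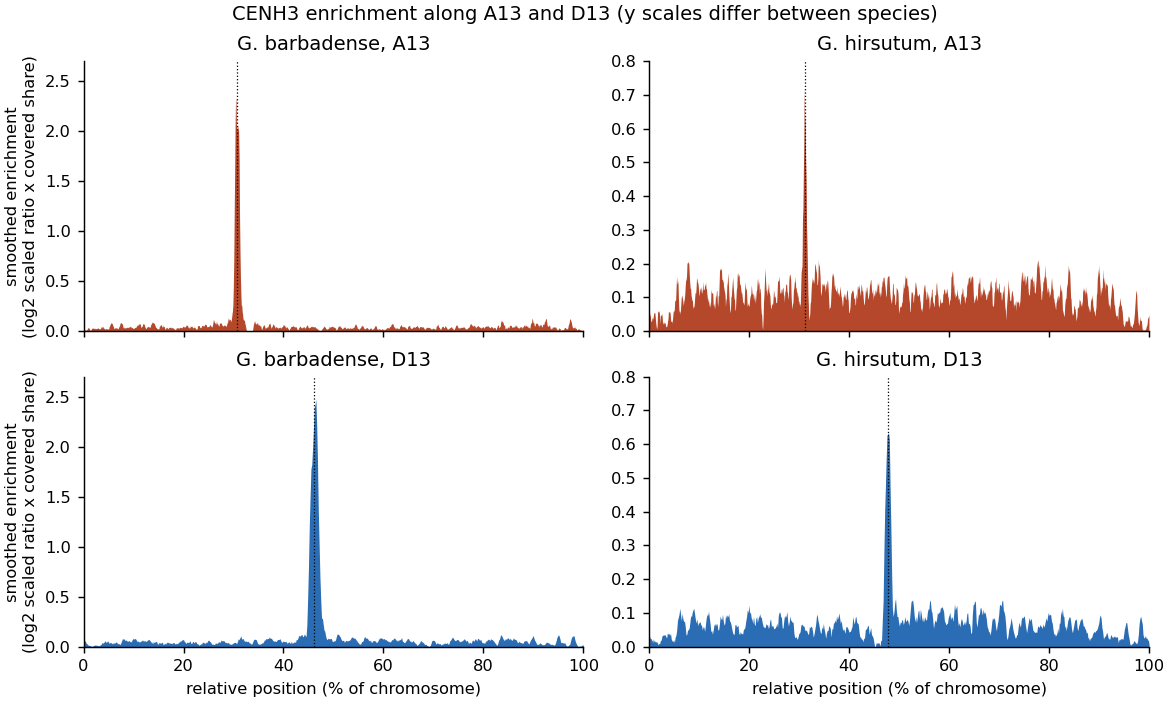
Smoothed CENH3 enrichment (vertical axis, log2 scaled ratio weighted by covered share, in 100-kb bins) against relative position (horizontal axis, % of chromosome) on A13 and D13 of G. barbadense (left) and G. hirsutum (right), with vertical scales that differ between species. A dotted line marks each domain midpoint, at 30.7% and 31.1% on A13 and at 46.1% and 47.7% on D13.

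The relative place of the domain differed far less between the species than between the homoeologues, and less on A13 than on D13. On A13 the midpoint was at 30.7% of the chromosome in G. barbadense and at 31.1% in G. hirsutum, a difference of -0.403 percentage points. On D13 it was at 46.1% in G. barbadense and at 47.7% in G. hirsutum, a difference of -1.59 points. That is not small beside the D13 domains themselves, which spanned 2.45% and 1.71% of the chromosome. Counted from the smallest, it ranked 8 of the 13 D chromosomes. Over the other 12 A chromosomes the absolute difference had a median of 0.567 points, and over the other 12 D chromosomes 0.897 points. These medians include G. hirsutum chromosomes whose highest site was no clear domain, such as A07 and D02, so they are no measure of how far domains moved. The midpoints of A13 were 0.35 Mb apart and those of D13 2.5 Mb apart, with a bin of 100 kb as the resolution. Between homoeologues the midpoint of A13 was 15.5 points nearer the start than that of D13 in G. barbadense, and 16.7 points nearer in G. hirsutum. Of the 13 pairs in G. barbadense, 3 had a larger A to D offset in either direction.

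Stated as arm lengths, the same midpoints divide each chromosome into a longer and a shorter part, so the arm ratio restates the position. The longer part of A13 was 2.26 times the shorter in G. barbadense and 2.22 times in G. hirsutum, whereas on D13 the arm ratio was 1.17 in G. barbadense, against 1.09 in G. hirsutum. The A13 domain thus lay towards the start of the assembled chromosome and the D13 domain close to its middle. In G. barbadense the sequence before the domain was 33.9 Mb long on A13 and 27.5 Mb on D13, and the sequence after it was 77.6 Mb on A13 and 32.2 Mb on D13. The stretch after the domain was therefore 2.41 times as long on A13, the highest such ratio of the 13 pairs (the others ran from 0.958 to 2.38, and without pairs 2 to 5 from 1.63 to 2.38). The stretch before it was 1.23 times as long, with a rank of 10 among the 13. For G. hirsutum the same ratios for pair 13 were 2.28 after the domain, a rank of 6 among the 13, and 1.12 before it. Start and end follow each assembly, and no alignment of A13 to D13 was made. In G. barbadense A13 (113 Mb) and D13 (61.2 Mb) differed in length by 1.85 times, and in G. hirsutum A13 (110 Mb) and D13 (64.4 Mb) by 1.71 times.

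Domains were about as wide on A13 as on D13. In G. barbadense both were 1.5 Mb wide, and in G. hirsutum A13 had 1 Mb and D13 had 1.1 Mb, a difference of 1 bin. Against the chromosome's length this came to 1.33% of A13 and 2.45% of D13 in G. barbadense, and to 0.906% of A13 and 1.71% of D13 in G. hirsutum. The other 12 A domains of G. barbadense ranged from 1.2 to 1.6 Mb, and its other 12 D domains from 1.2 to 1.9 Mb.

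Summed reads show how strong the enrichment was. In G. barbadense the islands of the A13 domain held 54386 ChIP and 3814 input reads, a ratio of 23.4 (22.6 to 24.2), and those of the D13 domain held 47422 ChIP and 2750 input reads, a ratio of 28.3 (27.2 to 29.4). These counting intervals do not overlap. In G. hirsutum the A13 domain held 8228 ChIP and 1091 input reads, a ratio of 9.05 (8.50 to 9.65), and the D13 domain held 8791 ChIP and 1128 input reads, a ratio of 9.35 (8.79 to 9.96). Here the intervals do overlap. D13 had the fourth highest domain ratio among the 13 D chromosomes of G. barbadense and A13 the eighth among its A chromosomes. The median scaled ratio of the domain islands was 24.5 on A13 and 24.6 on D13 in G. barbadense, and 9.8 on A13 and 10.4 on D13 in G. hirsutum. In G. barbadense 194 of 398 domain islands on A13 and 154 of 347 on D13 had under 3 input reads, so the floor sets many of these ratios and the medians do not bear on the difference in summed reads. The ratio of summed reads per 100-kb bin, which uses no floor, had a median of 35.7 in the A13 domain and 36.4 in the D13 domain. The higher sum of D13 therefore does not mean higher enrichment throughout its domain.

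The high ratios came from few input reads as well as from many ChIP reads. In G. barbadense the median A13 domain island held 83.3 ChIP and 4.0 input reads per kb, against 30 ChIP and 22.5 input reads per kb in islands more than 5 Mb outside the domain. The median D13 domain island held 81 ChIP and 3.5 input reads per kb, against 28.8 ChIP and 17.0 input reads per kb far outside. ChIP reads per kb were thus 2.78 times as high in the A13 domain and 2.82 times as high in the D13 domain, while input reads per kb were 0.178 of the arm level on A13 and 0.206 on D13. The other A chromosomes of G. barbadense had input levels of 0.152 to 0.273 and the other D chromosomes 0.136 to 0.273, so the thin input was no property of pair 13 alone. For G. hirsutum, islands of the A13 domain held a median of 62.9 ChIP and 6.67 input reads per kb, against 32.9 ChIP and 18 input reads in its arms. Those of the D13 domain held 53.3 ChIP and 5.71 input reads per kb, against 30.8 ChIP and 17.5 input reads in its arms. The domain exceeded the arms in ChIP reads per kb by 1.91 times on A13 and 1.73 times on D13 of this species. Island calling compares ChIP with input, and the part of the thin input in the calls was not tested.

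Within a domain, islands alternated with stretches where none was called. In G. barbadense the A13 domain had 398 islands, the most of its 13 A chromosomes. They covered 578 kb or 38.5% of the domain, a share with a rank of 11 among the 13. Its D13 domain had 347 islands, which covered 547 kb or 36.5%. G. hirsutum had 85 islands in the A13 domain, over 147 kb (14.7%), and 107 in the D13 domain, over 168 kb (15.2%). Its A13 count was the lowest of its 13 A chromosomes, some of which had no clear domain. Covered length was therefore 3.92 times as large in G. barbadense on A13 and 3.26 times as large on D13. The median uncovered stretch was 1.2 kb on both G. barbadense chromosomes, against 6.5 kb on A13 and 4.9 kb on D13 of G. hirsutum. The longest was 27.6 kb on A13 and 45.2 kb on D13 in G. barbadense, against 49.4 kb on A13 and 132.8 kb on D13 in G. hirsutum. That last gap lay at the edge of the D13 domain, where the outermost of its 11 bins and the next bin outside held no island.

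The bins inside a domain were uneven. On A13 of G. barbadense the unsmoothed bin value was 2.65 at 0.4 Mb before the midpoint and 3.0 at 0.3 Mb after it, with 1.25 at the midpoint between them. On D13 it was 2.12 at 0.4 Mb before the midpoint, 1.52 at 0.3 Mb before it, and highest at 0.1 Mb after it, with 3.01. The ratio of ChIP to input reads in the central bin of A13 was 45.6 (35.8 to 59.0, from 68 input reads), beside 45.4 (39.7 to 52.1) at 0.2 Mb before the midpoint. The highest ratio on D13 was 60.5 (50.4 to 73.4), in its central bin, beside 48.6 (42.4 to 56.0) in the next bin. The highest bin value in G. hirsutum was 0.94 on A13, at 0.15 Mb after the midpoint, and 0.75 on D13, at 0.2 Mb after it. The ratio per bin reached 16.5 (12.5 to 22.3) on A13 and 16.2 (12.3 to 21.6) on D13 in that species. In each of the 4 domains these intervals overlap those of other bins, so which bin is highest is not fixed.

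**Figure D2:**
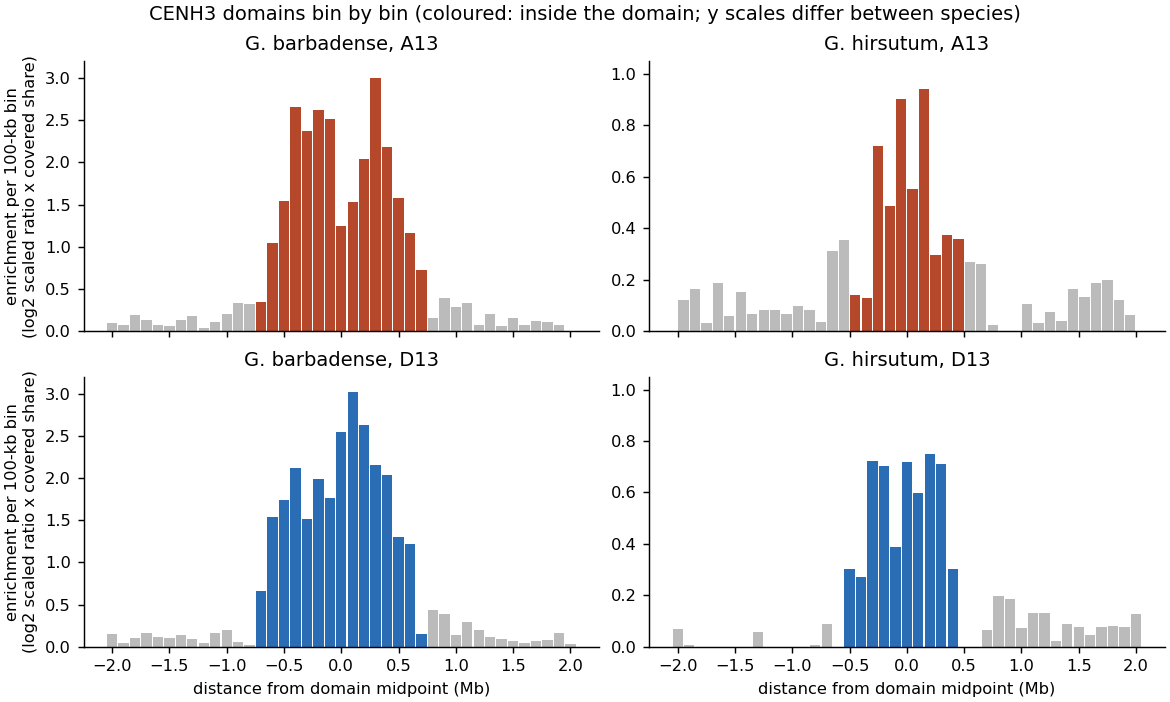
Unsmoothed enrichment per 100-kb bin (vertical axis, log2 scaled ratio weighted by covered share) against distance from the domain midpoint in Mb, for A13 and D13 of G. barbadense (left) and G. hirsutum (right), with vertical scales that differ between species. Coloured bars lie inside the domain; the A13 profile of G. barbadense has values of 2.65 and 3.0 on either side of a central bin of 1.25, and that of D13 is highest at 3.01.

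The island of highest scaled ratio lay inside the domain on all 4 chromosomes. The first 3 of the A13 domain in G. barbadense were at 35045601 to 35049000 (277 ChIP and 2 input reads), at 35038001 to 35039800 (272 ChIP and 3 input reads) and at 34857801 to 34862200 (341 ChIP and 4 input reads). Those of D13 in G. barbadense were at 28653601 to 28657000 (351 ChIP and 2 input reads), at 28398801 to 28402200 (302 ChIP and 2 input reads) and at 28198801 to 28199800 (235 ChIP and 2 input reads). Their scaled ratios ran from 128 to 192, with the input floor of 3 reads in force for 4 of the 6. On A13 of G. hirsutum the leading islands were at 34342801 to 34345400 (156 ChIP and 4 input reads), 34404401 to 34405800 (117 ChIP and 4 input reads) and 34502801 to 34505000 (80 ChIP and 2 input reads). On D13 of G. hirsutum they were at 30596801 to 30598600 (118 ChIP and 4 input reads), 30846601 to 30847800 (65 ChIP and 0 input reads) and 31016401 to 31017400 (85 ChIP and 4 input reads). Ratios there ran from 25.5 to 46.8. With so few input reads their order is not fixed; the interval of the first of these on A13 of G. hirsutum, for instance, was 17.9 to 174. The longest island of A13 in G. barbadense also lay in its domain, at 34266801 to 34290800, with 3025 ChIP and 388 input reads and a ratio of 12.8 (11.5 to 14.2).

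Strong islands, those of scaled ratio 4 or more, were counted next. In G. barbadense they made up 28.6% of the whole list and 791 of 3449 islands on A13 (22.9%, 21.5 to 24.4%), against 808 of 2038 on D13 (39.6%, 37.5 to 41.8%). In G. hirsutum they made up 9.75% of the whole list and 497 of 5271 islands on A13 (9.43%, 8.65 to 10.2%), against 232 of 1957 on D13 (11.9%, 10.5 to 13.4%). The other A chromosomes of G. barbadense had strong shares of 19.5 to 25.5% and its other D chromosomes 37.0 to 45.6%, so the gap between A13 and D13 was common to the subgenomes. Both homoeologues together were close to the list in each species, at 29.1% in G. barbadense and 10.1% in G. hirsutum. Inside the domains the strong share was 97.7% on A13 and on D13 of G. barbadense, and 97.6% on A13 and 97.2% on D13 of G. hirsutum, which follows from how domains were found. Of the islands of scaled ratio 8 or more (16.5% of the whole list in G. barbadense and 2.65% in G. hirsutum), the domain held 367 of 458 on A13 and 323 of 469 on D13 in G. barbadense. In G. hirsutum it held 57 of 107 on A13 (53.3%) and 79 on D13 (78.2%). Nearly as many very strong islands of A13 therefore lay outside its domain as inside it in G. hirsutum. This was not particular to A13, since the share inside was 49.6% on A12, 54.5% on A03 and 56.5% on A01. The other A chromosomes of the species ran from 0% on A05, whose highest site was no clear domain, to 67.1% on A08.

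Outside the domains, island density was about equal on A13 and D13 in G. barbadense and higher on A13 in G. hirsutum. More than 5 Mb from the domain, G. barbadense had 25.9 islands per Mb on A13 and 25.4 on D13, an A13 over D13 ratio of 1.02 (0.951 to 1.09). G. hirsutum had 47.1 islands per Mb on A13 and 29.2 on D13, a ratio of 1.61 (1.52 to 1.71). Across the other 12 pairs this ratio ran between 1.03 and 1.41 for G. barbadense, and between 1.48 and 1.72 for G. hirsutum, where arms on 10 of the 26 chromosomes were set by a site that was not 2 times as high as any other. By value, pair 13 was thus the most even of the 13 in G. barbadense, and without pairs 2 to 5 of the remaining 9. Its interval there took in the 1.03 of the lowest other pair, so this rank is not fixed. In G. hirsutum pair 13 lay within the others. At a deposited false discovery rate of 1e-05 or less the ratio of pair 13 was 0.707 in G. barbadense, so its evenness there did not hold under that limit. The density on D13 of G. barbadense was 0.871 of that in G. hirsutum, and on A13 it was 0.55 of that in G. hirsutum.

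For strong islands far from the domain the A13 over D13 ratio was below 1 in G. barbadense and above 1 in G. hirsutum, a difference that was not tested. In G. barbadense A13 had 348 such islands, or 3.43 per Mb, and D13 had 381, or 7.66 per Mb, the highest density among its 13 D chromosomes. The A13 over D13 ratio was 0.448 (0.386 to 0.519), below those of the other 12 pairs, which ran from 0.540 to 0.755, all under 1. In G. hirsutum A13 had 349 such islands, or 3.51 per Mb, and D13 had 105, or 1.97 per Mb. That ratio was 1.78 (1.43 to 2.24), within the 1.28 to 2.47 of the other pairs, all above 1, so the opposite directions were common to all 13 pairs. As a share of the islands in these arms they were 13.2% on A13 and 30.1% on D13 in G. barbadense (18.2% over all chromosomes), and 7.46% on A13 and 6.74% on D13 in G. hirsutum (7.88% over all chromosomes). The strong density of A13 was nearly equal in the species, and that of D13 was 3.89 times as high in G. barbadense. Most of these islands were small, with a median of 28 ChIP reads on each G. barbadense chromosome and 37 on each G. hirsutum one, and a median of 8 input reads on all 4. Among islands of at least 40 ChIP reads the G. barbadense ratio was 0.481 (52 islands on A13 and 53 on D13), which ranked ninth of the 13 pairs rather than last, and the G. hirsutum ratio was 1.72 (135 on A13 and 42 on D13).

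**Figure D3:**
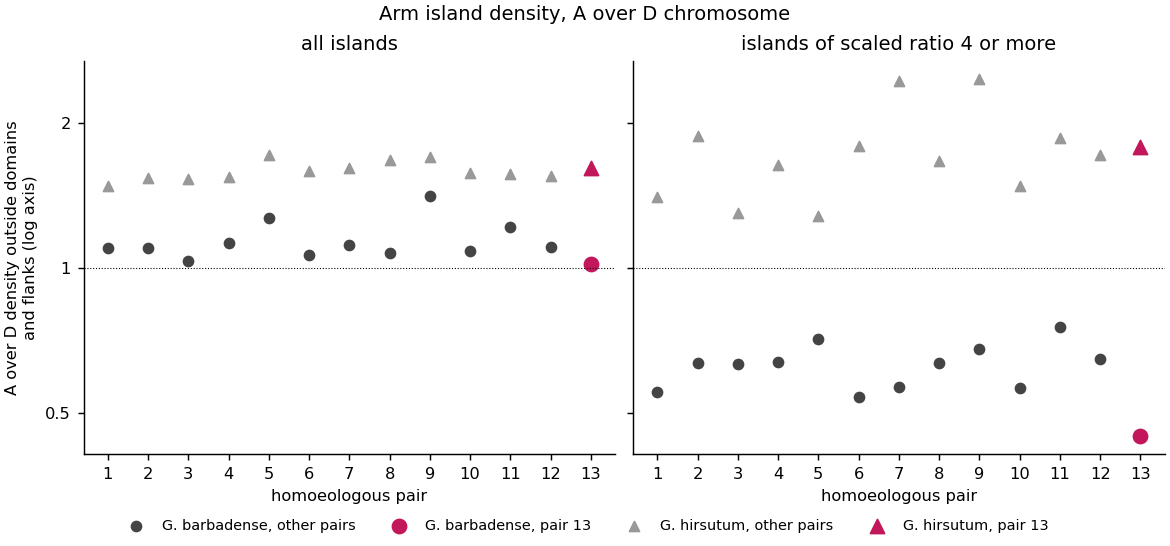
A over D ratio of island density outside domains and their 5-Mb flanks (vertical axis, log scale) for homoeologous pairs 1 to 13 (horizontal axis), for all islands (left) and for islands of scaled ratio 4 or more (right), with circles for G. barbadense and triangles for G. hirsutum. Pair 13, enlarged, has ratios of 1.02 and 1.61 for all islands, and of 0.448 and 1.78 for strong ones.

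The flanks showed a further contrast between the species, seen also in the medians of the other chromosomes. Within 5 Mb of the domain, G. barbadense had 42.4 islands per Mb on A13 and 42.6 on D13, above the 27.1 and 26.7 of the remaining arms. G. hirsutum had 51.0 per Mb on the flanks of A13 and 29.2 on those of D13, beside 50.7 and 31.1 in the remaining arms, so its flanks were about as dense as its arms. The summed ratio in G. barbadense was 2.13 in the flanks and 2.03 in the remaining arms of A13, and 2.23 in the flanks and 2.38 in the remaining arms of D13. The first 0.5 Mb beyond the G. barbadense domain edges held 84 islands per Mb before the A13 domain and 100 after it, and 48 before the D13 domain and 94 after it. The same stretches in G. hirsutum held 38 before and 30 after on A13, and 6 before and 32 after on D13. D13 of G. hirsutum was thus nearly bare of islands on its start side, with 3 islands in the first 0.5 Mb and 1 in the next. On A13 of G. barbadense the bare stretch was on the other side. Its 100-kb bins centred from 2 to 3.7 Mb after the domain midpoint held only 1 island, in the bin at 3.4 Mb. The 11 islands counted from 1 to 2 Mb after the domain edge lay just before this stretch, in the bins at 1.8 and 1.9 Mb.

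**Figure D4:**
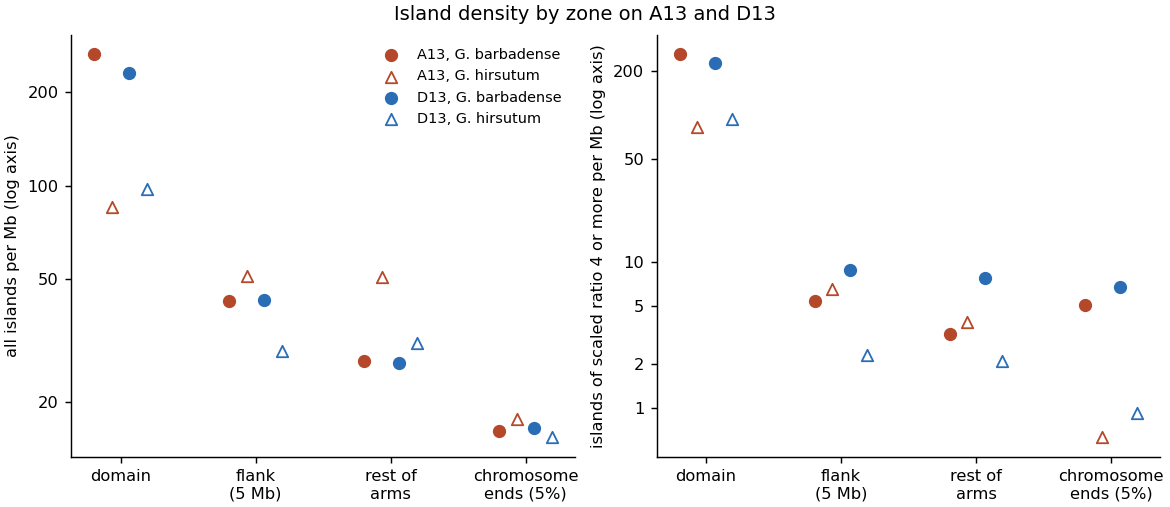
Islands per Mb (left) and islands of scaled ratio 4 or more per Mb (right), both on log axes, in the domain, its 5-Mb flanks, the rest of the arms and the chromosome ends (first and last 5%), with 1 point per chromosome and species in each zone. Densities fall from 265 and 231 islands per Mb in the A13 and D13 domains of G. barbadense to 16.1 and 16.5 at the ends.

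Chromosome ends were sparse on all 4 chromosomes. The first and last 5% held 16.1 islands per Mb on A13 and 16.5 on D13 in G. barbadense, against 17.7 on A13 and 15.4 on D13 in G. hirsutum. Strong islands were 31.3% of the end islands on A13 and 40.6% on D13 in G. barbadense (30.9% over all chromosome ends), and 3.59% on A13 and 6.06% on D13 in G. hirsutum (8.99% over all chromosome ends). In 20 equal parts of the chromosome, the part that held the domain had 98.4 islands per Mb on A13 and 144 on D13 of G. barbadense, with at most 47.5 and 44.1 in any other part. The domain's part in G. hirsutum had 58.0 on A13, below the 65.6 of the part from 75 to 80%, and 45.3 on D13, above the 40 of the next part. Without the domain's part, densities of the species over the remaining 19 parts had a Pearson r of 0.468 and a Spearman rho of 0.175 on A13, and of 0.527 and 0.424 on D13. A13 and D13 had an r of 0.115 and a rho of 0.0909 over 18 parts in G. barbadense, and of 0.706 and 0.444 in G. hirsutum. These describe profiles from shared libraries that include the sparse ends.

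The strongest arm islands had lower scaled ratios than the leading islands of the domains, but few input reads leave this gap loose. On D13 of G. hirsutum, for instance, the interval of the domain leader was 13.5 to 132, which overlaps that of the arm leader. On A13 of G. barbadense the arm leader had no input read, so the floor set its ratio. Among islands of at least 40 ChIP reads more than 5 Mb away, the leaders on A13 of G. barbadense were at 105140801 to 105141800 (53 ChIP and 0 input reads), 96924401 to 96925400 (43 ChIP and 2 input reads) and 12687601 to 12688800 (40 ChIP and 2 input reads). Their scaled ratios were 21.9 to 29.0. On D13 of G. barbadense the leader, at 17848601 to 17849800 with 42 ChIP and 4 input reads, reached 17.2 (6.25 to 66.1). The next on D13 were at 55115001 to 55116600 (49 ChIP and 8 input reads) and 58243201 to 58245600 (45 ChIP and 8 input reads). The leader of A13 in G. hirsutum was at 89311601 to 89312200, with 45 ChIP and 5 input reads and a ratio of 10.8 (4.30 to 34.9). It was followed by 2 islands of 46 ChIP and 6 input reads each, at 8673801 to 8675200 and at 74451801 to 74453400. The leader of D13 in G. hirsutum was at 41230601 to 41231200, with 43 ChIP and 4 input reads and a ratio of 12.9 (4.69 to 49.5). Islands at 18409601 to 18410800 (42 ChIP and 5 input reads) and at 39410401 to 39412400 (46 ChIP and 6 input reads) came next. Their intervals are wide and overlap one another, so these islands cannot be ranked.

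Outside the domains, the 3 islands per chromosome with the largest ChIP excess over scaled input all had over 100 input reads per kb, except 1 at 29300601 to 29306400 on D13 of G. barbadense (180 ChIP and 112 input reads). On every one of the 4 chromosomes an island began at the first base. In G. barbadense it had 4932 ChIP and 7083 input reads on A13 (1 to 14400, ratio 1.14) and 4333 ChIP and 6074 input reads on D13 (1 to 18200, ratio 1.17). In G. hirsutum it had 5300 ChIP and 4928 input reads on A13 (1 to 16200, ratio 1.29) and 4494 ChIP and 4605 input reads on D13 (1 to 18600, ratio 1.17). Such an island began 25 of 26 G. barbadense chromosomes and 26 of 26 G. hirsutum chromosomes. The last islands, by contrast, had 41 ChIP and 34 input reads on A13 and 53 ChIP and 50 on D13 in G. barbadense, and 33 ChIP and 17 on A13 and 53 ChIP and 26 on D13 in G. hirsutum.

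Islands of 100 or more input reads per kb, a limit chosen after the values were seen, numbered 12 on A13 and 3 on D13 in G. barbadense, and 15 on A13 and 4 on D13 in G. hirsutum. None lay in a domain, and their scaled ratios did not exceed 2.41. A group of 3 of them lay at a similar relative place on A13 in both species, 40.2% of the chromosome in G. barbadense and 40.9% in G. hirsutum. In G. barbadense it began at 45387001, with 1073 ChIP and 788 input reads in the island to 45388800, 10.7 Mb after the domain midpoint. In G. hirsutum it began at 45156601, with 2306 ChIP and 1522 input reads in the island to 45160400, 10.9 Mb after the midpoint. D13 had a similar match, at 45177401 to 45180000 in G. barbadense (2050 ChIP and 2538 input reads, 73.8% of the chromosome) and at 47750201 to 47752800 in G. hirsutum (4640 ChIP and 3872 input reads, 74.1%). These lay 16.9 Mb and 17.0 Mb after their domain midpoints.

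Some dense islands had no dense island within 1% of the chromosome's length in the other species. On A13 of G. hirsutum 6 islands between 100985401 and 101021600, a span of 36.2 kb at 91.5% of the chromosome, held 51100 ChIP and 38097 input reads, 6.21 times the ChIP reads of the whole A13 domain. Their joint ratio was only 1.61 (1.59 to 1.63), and they took 12.6% of the ChIP reads and 15.9% of the input reads of all A13 islands. The largest, at 100987201 to 101000600, had 27149 ChIP and 19279 input reads. Within 1% of the chromosome's length of this place, the densest of 80 islands on A13 of G. barbadense had 55 input reads per kb, against 1439 in that largest island. The position of the G. hirsutum A13 domain depends on them in 1 setting. With ChIP minus scaled input reads as the bin value, the highest site of A13 moved to 100.7 to 101.3 Mb, or 91.5% of the chromosome, and without islands of 100 or more input reads per kb, a setting added after seeing the data, it was at 31.1% again. The same species also had a dense island on D13 without a match, at 10361001 to 10362800 (2704 ChIP and 2092 input reads). On A13 of G. barbadense an unmatched one lay at 21914401 to 21916200 (1440 ChIP and 1564 input reads).

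**Figure D5:**
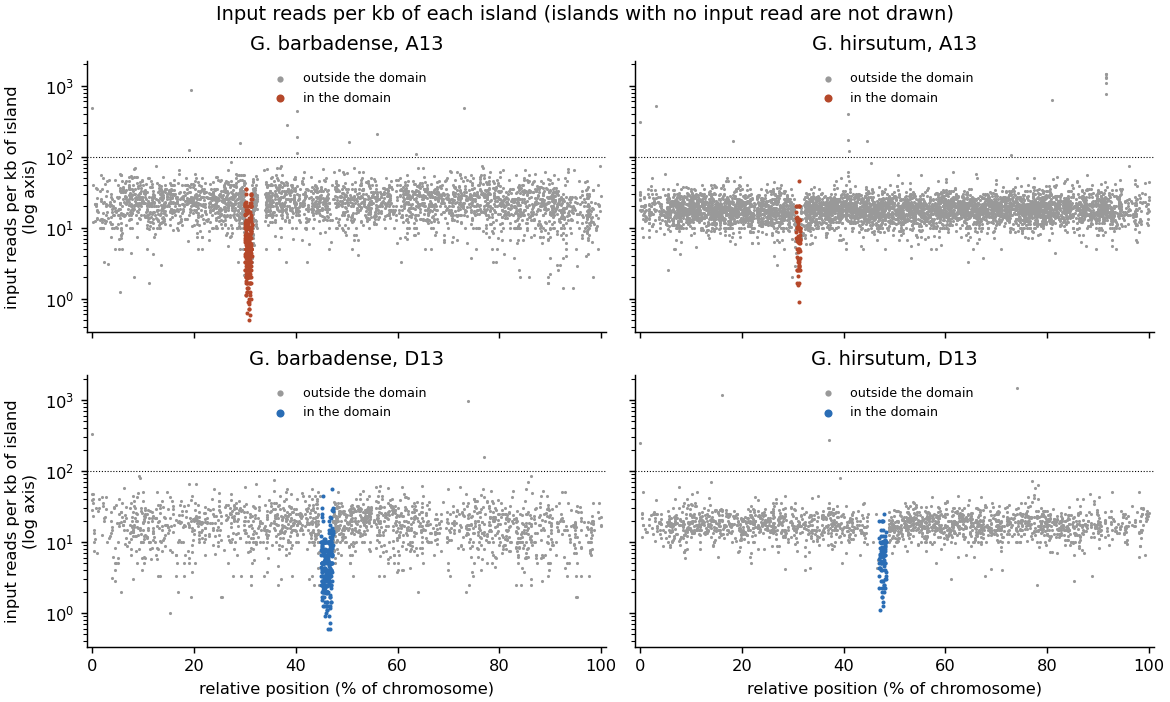
Input reads per kb of each island (vertical axis, log scale) against relative position (horizontal axis, % of chromosome) on A13 and D13 of G. barbadense (left) and G. hirsutum (right); coloured points are islands in the domain and the dotted line marks 100 reads per kb. Domain islands sit below most others, with medians of 4.0 and 3.5 input reads per kb on A13 and D13 of G. barbadense, and the group of dense islands at 91.5% of A13 is seen in G. hirsutum. Islands with no input read are not drawn but count in these medians. In G. barbadense they were 97 of 398 domain islands on A13 and 73 of 347 on D13.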

How the data were processed

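CENH3 ChIP and input were sequenced from leaf of both species, 1 library each. Per the submitters' processing notes, Trimmomatic, Bowtie2 and SICER were used; their versions and the genome builds are not stated in the labels. The list names record windows of 200 bp, gaps of 400 bp, a false discovery rate of 0.01 and the tag uniq, which the labels do not explain. The authors deposited raw counts of ChIP and input reads per island, a p-value, a fold (a ratio of ChIP to input) and a false discovery rate (q-value). The lists have no header; columns were read in SICER's usual order. In each list the deposited fold was the quotient of ChIP and input reads multiplied by a single constant, and that constant, rounded, gave the scaled ratio. Islands with no input read (2459 in G. barbadense, 281 in G. hirsutum) carry a very high deposited fold, so at least 3 input reads were assumed. The lists hold 4068080 ChIP reads in G. barbadense and 6132203 in G. hirsutum; these are not library depths. Islands were placed in zones by midpoint. Python 3.11.15, pandas 2.3.3 and scipy 1.17.1 were used. The domain rule returned domains planted in simulated lists whose island densities and ratios were near those of G. barbadense. Weaker domains on denser arms, as in G. hirsutum, were not simulated, so the rule is untested for that case. Islands named in the text were, per chromosome and species, the 3 of highest scaled ratio in the domain, the 3 highest in the arms with at least 40 ChIP reads, the 3 with most ChIP above scaled input outside the domain, the longest, the densest in input, the first and the last; not all are printed. Ranks without pairs 2 to 5 and intervals of single bins were added after seeing the data. Members and rules were chosen with earlier results of these data known.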

Additional observations from a re-analysis of the deposited data

Results flagged for a closer look

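In 8 of 17 measures compared between A13 and D13, the log2 ratio of A13 over D13 had opposite signs in the species. With 1 library per species none of these differences was tested, and no lower limit on their size was set. For the density of islands of scaled ratio 4 or more far from the domain, the log2 ratio was -1.16 in G. barbadense, against 0.83 in G. hirsutum, a difference of -1.99. For their share of all arm islands it was -1.18 in G. barbadense, against 0.15 in G. hirsutum, a difference of -1.33. The other 12 pairs were all below 1 in both measures in G. barbadense, and in G. hirsutum 12 of 12 were above 1 in density and 7 of 12 in share, so these opposite signs are not particular to pair 13.

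Island density after the domain gave -0.19 in G. barbadense and 0.64 in G. hirsutum, a difference of -0.83, and island density over the whole chromosome gave -0.12 in G. barbadense and 0.65 in G. hirsutum, a difference of -0.78. After the domain, 11 of the other 12 pairs were above 1 in G. barbadense, where pair 13 ranked 13 of 13. Over the whole chromosome 6 of 12 were above 1 in that species. In G. hirsutum 12 of 12 were above 1 in both densities. The median scaled ratio of arm islands differed by -0.41 (-0.34 in G. barbadense and 0.07 in G. hirsutum), and the summed ratio of the arms by -0.20 (-0.15 in G. barbadense and 0.06 in G. hirsutum). For both of these, 0 of the other 12 pairs were above 1 in G. barbadense. In G. hirsutum 11 of 12 were above 1 for the median and 12 of 12 for the summed ratio. Opposite signs in these 2 measures were thus not particular to pair 13. In the domain, the number of islands gave 0.20 in G. barbadense (398 on A13 and 347 on D13), against -0.33 in G. hirsutum (85 on A13 and 107 on D13), a difference of 0.53. The counting interval of that ratio included 1 in both species, at 0.991 to 1.33 in G. barbadense and 0.590 to 1.07 in G. hirsutum. Covered length in the domain gave 0.08 in G. barbadense and -0.19 in G. hirsutum, a difference of 0.27.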

How the results depend on the processing

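Of 112 values recomputed under alternatives, 6 kinds of which were added after seeing the data, 88 stayed within 1 bin of position or width, or within the counting interval, and 24 moved; no A13 over D13 ratio called on a side of 1 changed side. Some of the 88 equalled the main value exactly because the alternative left the counted islands unchanged, so they say little about stability. Among them were the strong shares under the deposited fold and under an input floor of 1 read. The domain ratios from islands wholly inside were others, as were the strong arm densities under the deposited fold and the stricter false discovery rate. Domain midpoints moved by more than 1 bin in 2 cases. With ChIP minus scaled input the G. hirsutum A13 site went to 91.5% of the chromosome with a width of 0.6 Mb, and with covered length the G. barbadense D13 midpoint went to 46.5%. Under a threshold of 40% the widths in G. barbadense were 1.3 Mb on A13 and 1.3 Mb on D13, and those in G. hirsutum 0.8 Mb on A13 and 0.9 Mb on D13. With covered length they were 2.1 Mb on A13 and 1.9 Mb on D13 in G. barbadense and 0.9 Mb on D13 in G. hirsutum. With ChIP minus scaled input both G. barbadense domains were 1.3 Mb wide. The domain ratio in G. barbadense was 25.5 on A13 and 30.6 on D13 from islands of scaled ratio 4 or more, and 26.1 on A13 and 30.5 on D13 under the threshold of 40%. At a false discovery rate of 1e-05 or less, which leaves fewer islands, the strong share was 46.6% on A13 and 60.7% on D13 in G. barbadense, and 13.2% on A13 and 18.2% on D13 in G. hirsutum. At that rate the A13 over D13 density in the arms stood at 0.707 for G. barbadense, against 1.83 for G. hirsutum, and from strong islands alone at 0.448 for G. barbadense, against 1.78 for G. hirsutum. The G. barbadense ratio of 1.02 thus depends on which islands are counted. No paired analysis was possible because each group had 1 library. No leaving out of a library was possible for the same reason.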
